A study of Mus musculus with 16 samples.

Results

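Long intergenic noncoding RNAs (lincRNAs) expressed in mouse pancreatic tumour cells were taken as the rows of the count table with the gene biotype lincRNA and at least 50 counts in each of its 4 libraries used here. The rule gave 65 members of 5559 lincRNA genes and of 54532 genes in all, and each member was found by its gene identifier in the TPM table (TPM, abundance scaled to transcript length and library total). The choice rested on counts of the WT and overexpression libraries, so the level of the members there is a description and not a result. Of the lincRNA genes outside, 4115 had no count in any of the 4 libraries, and 48 reached 50 counts in some of them only. A minimum of 20 counts would have given 117 members and a minimum of 100 counts 32. At the edge, 4 members had a lowest count of exactly 50: Wincr1, 3222401L13Rik, Ftx and G930009F23Rik. Just outside were 5430416N02Rik with a lowest count of 49, AC129328.1 with 48 and D930028M14Rik with 47.

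Messenger-like noncoding RNAs of this class are made by RNA polymerase II from their own genes, are often spliced and polyadenylated, and code for no known long protein. Some stay at their place of synthesis and act on nearby genes, some build nuclear bodies, some bind proteins or microRNAs in the cytoplasm, and some serve mainly as the source of small RNAs cut from their introns or exons. In pancreatic and other tumours they are known mainly through a few well-studied members, among them Malat1, Neat1, H19, Meg3 and Pvt1.

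The study concerned Ly6d, a lipid-anchored surface protein, in tumours that KPC1199, a mouse pancreatic cancer line, formed orthotopically (in the pancreas). The groups used were KPC1199 cells sorted from such tumours: Ly6d WT, Ly6d overexpression, Ly6d high expression and Ly6d low expression, with 2 libraries each. Tumour tissue of WT and overexpression, 4 samples each, was not analysed here. Mouse strain and age, the promoter that drives Ly6d, the sort gate and the origin of replicates (separate animals or not) are not stated in these sources. P-values therefore measure only the spread between these samples, which may be technical. The WT columns carry names found in sorted WT titles and, in part, in tissue titles. The overexpression columns carry a name that in the labels belongs to overexpression tumour tissue. Both assignments to sorted cells are thus inferred from names.

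Total counts were 15449241 to 18290325 in the WT and overexpression libraries, and 15063975 to 20509539 reads were recovered from TPM in the libraries sorted on Ly6d. Ly6d was at 1260 and 1066 CPM (counts scaled to the library total) in WT and at 3380 and 3423 CPM in overexpression. It was at 697 and 504 TPM in Ly6d-high and at 1.56 and 0.352 TPM in Ly6d-low cells, which were sorted on it. The epithelial marker Epcam lay between 625 and 649.6 CPM and between 1955 and 2434 TPM. The summed tumour epithelial list of 10 genes, Epcam among them, lay between 12862 and 14266 CPM. It was at 41535 and 41114 TPM in Ly6d-high and at 57102 and 58348 TPM in Ly6d-low cells. In the comparison of these fractions below, 4 of its 10 genes were lower in Ly6d-high cells and 1 higher. Markers of other cells were present too: the summed fibroblast list lay between 7042 and 8125 CPM, and the summed acinar list was at 27211 and 27682 CPM in WT against 2081 and 2286 CPM in overexpression. In such bulk samples fewer cells of a type and less RNA per cell cannot be told apart. WT replicate 2 stood apart from the other libraries: the ribosomal RNA gene CT010467.1 took 0.919% of its counts, against 0.0478% in WT replicate 1 and 0.0931% and 0.0822% in overexpression. Results that rest on it are also given without it.

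Of the 65 members, 6 held microRNA genes inside their span, which gave 13 mature sequences with 13 different seeds, so no group shared a seed. They are shown because the host transcript and its microRNA come from the same primary RNA, and because the libraries counted here measure the host only. All 13 mature sequences matched RefSeq (GRCm38.p6). The chosen arms come from H19, from Meg3, from the transcript AL805899.1 that spans Mir31, and from Ftx. Capitals mark the seed, bases 2 to 8 from the 5′ end.
mmu-miR-675-5p in H19: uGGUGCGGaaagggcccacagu
mmu-miR-770-5p in Meg3: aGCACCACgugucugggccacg
mmu-miR-31-5p in AL805899.1: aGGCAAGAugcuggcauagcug
mmu-miR-421-5p in Ftx: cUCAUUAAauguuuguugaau
mmu-miR-374b-5p in Ftx: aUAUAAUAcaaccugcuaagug

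Promoter windows (250 bases before to 50 after the start, RefSeq, GRCm38.p6) were matched for 40 members, 47 windows in all. They were searched on both strands for 6 motifs: the TATA box TATAAA, the CCAAT box, the GC box GGGCGG, the AP-1 site TGACTCA, the E-box CACGTG, and the hypoxia response core ACGTG, which lies within the E-box. The windows below belong to the members that passed the test of a comparison and had an entry. Capitals mark motif matches. 2900097C17Rik, Gm3054, Gm26809 and G930009F23Rik had no entry. Malat1 lies on the minus strand and its window is chr19:5802623-5802922. Meg3 is on the plus strand at chr12:109540746-109541045, its first annotated start. 1810058I24Rik is on the plus strand at chr6:35252460-35252759, also its first start, and AW112010 on the minus strand at chr19:11050517-11050816.
Malat1: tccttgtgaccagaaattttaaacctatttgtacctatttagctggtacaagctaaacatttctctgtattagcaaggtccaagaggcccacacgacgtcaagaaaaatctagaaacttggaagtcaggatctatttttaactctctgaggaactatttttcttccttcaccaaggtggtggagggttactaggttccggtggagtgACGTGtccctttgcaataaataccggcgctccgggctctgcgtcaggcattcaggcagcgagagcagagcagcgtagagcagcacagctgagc
Meg3: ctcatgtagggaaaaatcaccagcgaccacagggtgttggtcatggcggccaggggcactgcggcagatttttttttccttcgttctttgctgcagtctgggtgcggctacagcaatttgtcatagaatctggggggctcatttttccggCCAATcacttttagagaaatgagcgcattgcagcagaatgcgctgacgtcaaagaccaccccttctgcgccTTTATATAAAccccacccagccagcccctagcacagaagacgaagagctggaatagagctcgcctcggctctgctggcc
1810058I24Rik: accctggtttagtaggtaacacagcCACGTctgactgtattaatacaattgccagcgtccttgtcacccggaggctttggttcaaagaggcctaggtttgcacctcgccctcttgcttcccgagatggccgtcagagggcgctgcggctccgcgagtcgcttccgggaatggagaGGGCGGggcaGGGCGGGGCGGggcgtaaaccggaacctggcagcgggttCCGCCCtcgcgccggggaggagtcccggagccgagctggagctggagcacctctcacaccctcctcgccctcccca
AW112010: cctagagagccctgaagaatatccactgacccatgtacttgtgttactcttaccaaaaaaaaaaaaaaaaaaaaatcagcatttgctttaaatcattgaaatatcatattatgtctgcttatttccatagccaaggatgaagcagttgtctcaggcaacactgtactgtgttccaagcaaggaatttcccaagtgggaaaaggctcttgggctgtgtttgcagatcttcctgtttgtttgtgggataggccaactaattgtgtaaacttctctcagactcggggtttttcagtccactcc

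The 4 windows differ in make-up: 1810058I24Rik has 65% G and C, 25 CpG and 4 GGGCGG matches, while AW112010 has 40% G and C, 1 CpG and none of the 6 motifs. Malat1 has 1 ACGTG match, and Meg3 has CCAAT and TATAAA matches, the latter on both strands and overlapping. Over the member windows, TATAAA was found in 12.8% against 13.6% of all 32851 windows of the table, CCAAT in 40.4% against 37.4%, and GGGCGG in 36.2% against 35.7%. TGACTCA was found in 8.51% against 5.20%, CACGTG in 6.38% against 7.15%, and ACGTG in 27.7% against 19.6%. A match is a description of letters, not of a bound site.

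Few RNAs held most of the members' counts. Members took 0.242% and 0.282% of all counts in WT and 0.214% and 0.208% in overexpression, and from 0.301% to 0.312% of recovered reads in Ly6d-high and Ly6d-low cells. They held from 81.8% to 86.4% of all lincRNA reads of each library. Malat1 and Gm26917 alone held 46.3% of the members' counts. Per length, the mean over the 4 count libraries ran from 0.453 CPM per kilobase for Mirt1 to 107.9 for Malat1, with a median of 4.20, and in the TPM table from 0.114 TPM for Meg3 to 861.5 TPM for AW112010, with a median of 7.25 TPM.

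**Figure D1:**
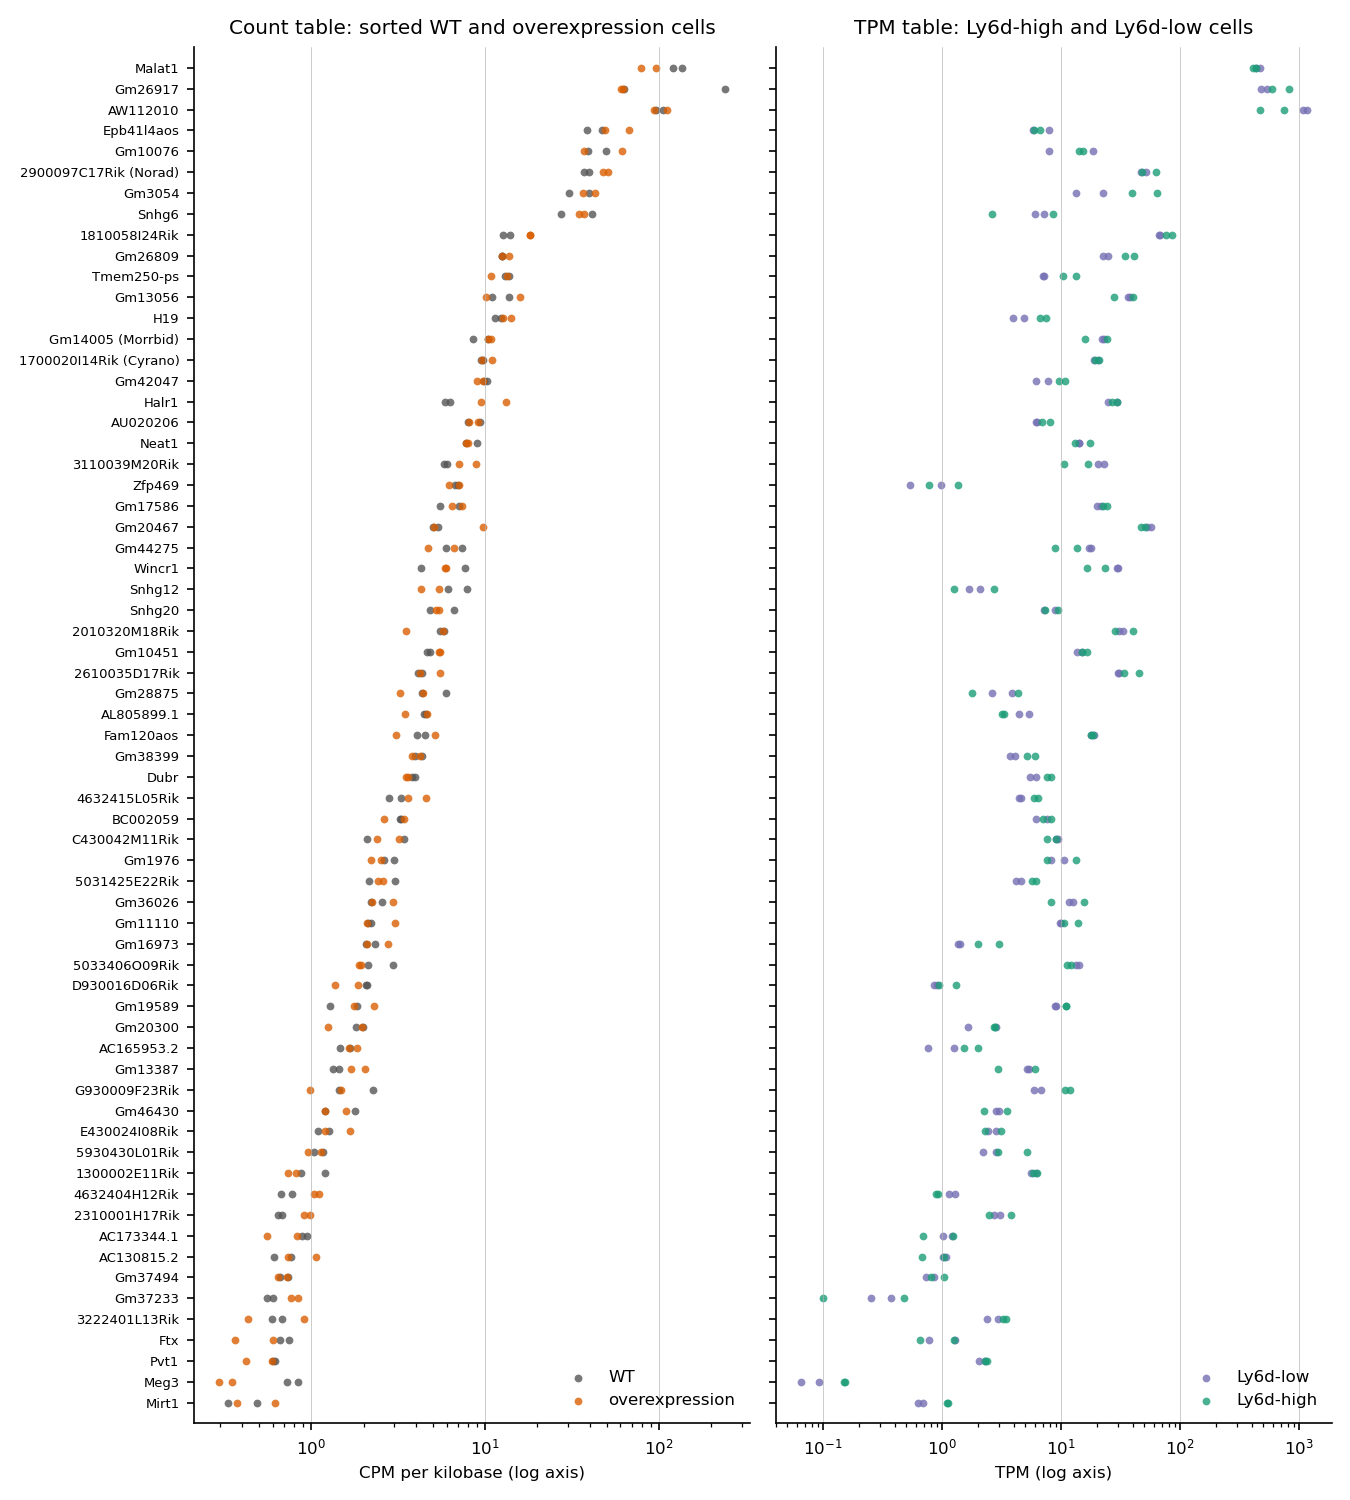
Levels of the 65 members in each library, ordered by mean CPM per kilobase in the count table; points are single libraries, log axes, CPM per kilobase on the left (WT grey, overexpression orange) and TPM on the right (Ly6d-low violet, Ly6d-high green). Malat1, Gm26917 and AW112010 lead in both tables, while Epb41l4aos, Snhg6, Zfp469 and Meg3 lie far to the left of their neighbours in the TPM panel.

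Levels of most members lay within 2-fold between libraries of a table. The highest of the 4 count libraries was within 2-fold of the lowest for 59 members and within 1.5-fold for 31, and across the 4 TPM libraries 49 were within 2-fold. The rule itself favours even levels in the count libraries, since it asks for 50 counts in each. It left out 48 lincRNA genes that reached 50 counts in some of them only. The share of all genes within these limits was not counted, so the counts only describe the members. The order at the top was not resolved: per kilobase Malat1 lay between 79.2 and 136 CPM, AW112010 between 94.2 and 112 CPM and Gm26917 between 60.5 and 240 CPM, so the 3 ranges overlapped. Epb41l4aos (38.4 to 66.8 CPM per kilobase), Gm10076, 2900097C17Rik (37.02 to 51.1) and Gm3054 (30.4 to 42.6) followed and overlapped in the same way. A clear step came below Snhg6 (27.2 to 41.2), since 1810058I24Rik lay between 12.6 and 18.2.

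Among the most abundant members are RNAs of nuclear bodies. Malat1 (ENSMUSG00000092341, chromosome 19, 5795690 to 5802672, minus strand, GRCm38, a single exon block of 6983 bases) is a nuclear RNA of the splicing speckles. It was at 949 and 845 CPM in WT, at 668 and 553 CPM in overexpression, at 434 and 408 TPM in Ly6d-high and at 435 and 469.9 TPM in Ly6d-low cells. Both overexpression libraries lay below both WT libraries, and both Ly6d-high libraries just below both Ly6d-low libraries. Neat1, the scaffold of paraspeckles, lies next to it on the same chromosome (5824708 to 5845478, 20771 bases). Neat1 was at 186 and 161 CPM in WT and 166 and 161 CPM in overexpression, and between 13.1 and 17.4 TPM in the sorted fractions, with overlapping groups in both tables.

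Gm26917 (chromosome 17, 39843013 to 39846341, plus strand) ends beside the ribosomal RNA gene CT010467.1, which runs from 39846353 to 39848827 on the other strand. Its exons are 69.1% G and C, the highest share of any member. It was at 210.1 CPM in WT replicate 1, 798 CPM in WT replicate 2, and 202 and 208 CPM in overexpression. The high library is the same library in which CT010467.1 was high, at 9191 CPM against 478 to 931 CPM in the others. In the TPM table Gm26917 was at 589 and 828 TPM in Ly6d-high and at 479 and 534 TPM in Ly6d-low cells, without overlap. This difference did not pass the test (0.46 ± 0.17 SE, limma adjusted p = 0.120). There CT010467.1 was at 539 and 520 TPM in Ly6d-high and at 525 and 520 TPM in Ly6d-low cells. Without Gm26917 the members' share of counts was 0.221% and 0.203% in WT and 0.194% and 0.187% in overexpression. Whether its reads came from ribosomal RNA was not tested.

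**Figure D2:**
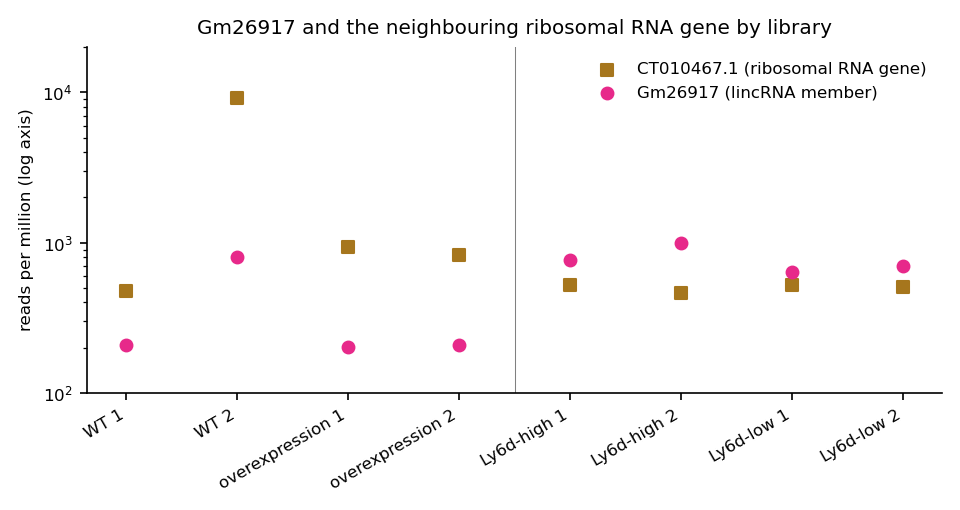
Gm26917 (pink circles) and the neighbouring ribosomal RNA gene CT010467.1 (brown squares) in each of the 8 libraries, in CPM on a log axis. Both are highest among the count libraries in WT replicate 2, at 798 and 9191 CPM, while among the Ly6d-high and Ly6d-low libraries CT010467.1 takes 0.0464% to 0.0520% of reads. Gm26917 is highest in Ly6d-high replicate 2, the library with the 0.0464%.

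Hosts of small nucleolar RNAs, which guide the modification of ribosomal RNA, formed a group of 4: Snhg6 (holding Snord87), Epb41l4aos, Snhg20 (holding a small Cajal body RNA) and Snhg12 (holding Snora44, Snora61, Snord99 and others). Snhg6 was at 47.2 and 31.1 CPM in WT and 42.5 and 39.8 CPM in overexpression, and Epb41l4aos at 20.2 and 16.5 against 21.05 and 28.7 CPM. Snhg12 was at 18.8 and 14.7 CPM in WT and at 12.96 and 10.2 CPM in overexpression, without overlap, and Snhg20 between 13.5 and 18.4 CPM, with overlap. In the TPM table none of the 4 had groups that did not overlap. Per kilobase, Epb41l4aos was 19.7-fold, Snhg6 14.6-fold and Snhg12 7.79-fold higher in the count table than in the TPM table, and Snhg20 1.74-fold.

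Imprinted members are expressed from a single parental copy. H19, the maternally expressed partner of Igf2 and host of miR-675, was at 28.2 and 30.2 CPM in WT and 31.05 and 34.7 CPM in overexpression. It was at 6.59 and 7.52 TPM in Ly6d-high and 4.84 and 3.94 TPM in Ly6d-low cells. The higher groups did not overlap the lower ones in either table, but neither difference passed the test (adjusted p = 0.617 by edgeR and 0.1 by limma). Meg3, the maternally expressed RNA of the Dlk1-Dio3 locus and host of miR-770, is described with the comparisons. Rian, its downstream partner and no member, was at 10.1 and 10.3 CPM in WT and 7.44 and 5.83 CPM in overexpression (log2 fold change -0.64 ± 0.24 SE, edgeR adjusted p = 0.188).

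Several members are known from chromatin, proliferation or signalling. Norad, listed as 2900097C17Rik (chromosome 2, 156388065 to 156392979), binds Pumilio proteins in the cytoplasm and was the third member by CPM after Malat1 and Gm26917. Cyrano (1700020I14Rik), which pairs with the microRNA miR-7 and leads to its decay, was at 80.8 and 78.8 CPM in WT, at 91.6 and 79.5 CPM in overexpression, and at 18.7 to 20.99 TPM. Pvt1, a neighbour of Myc, was at 4.20 and 4.34 CPM in WT and 4.16 and 2.94 CPM in overexpression, while Myc was at 121 and 118 CPM and at 103 and 104 CPM (log2 fold change -0.23, edgeR adjusted p = 0.127). Cyrano, and Morrbid below, are outside the naming rule and were picked after their values were seen.

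Ftx, a gene of the X-inactivation centre, was near the edge of the rule with 50 to 91 counts. Xist itself had no count in 3 of the 4 count libraries and was listed at 0 in all TPM libraries. Halr1, named for its place beside the Hoxa cluster, was at 5.80 and 6.15 CPM in WT and at 9.29 and 13.0 CPM in overexpression (log2 fold change 0.88 ± 0.25 SE, edgeR adjusted p = 0.0815), and it was called without overexpression replicate 1 (1.10, adjusted p = 0.00302). Wincr1, a target of Wnt signalling, was at 5.80 and 3.24 CPM in WT and 4.54 and 4.50 CPM in overexpression. It was at 23.4 and 16.6 TPM in Ly6d-high and at 30.2 and 29.2 TPM in Ly6d-low cells (limma adjusted p = 0.106). Dubr, known from muscle cell differentiation, was at 17.8 and 18.4 CPM in WT and at 16.4 and 16.8 CPM in overexpression (edgeR adjusted p = 0.729). AU020206 lay between 25.6 and 29.7 CPM and BC002059 between 5.50 and 7.11 CPM, and neither passed in either comparison.

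The annotation of some members as noncoding is not shared by RefSeq. Of 53 members matched there by name or identifier, 44 were lncRNA, 7 protein-coding and 2 pseudogenes. The protein-coding ones were 1810058I24Rik, Tmem250-ps, Zfp469, Gm37494 (Gm33989), D930016D06Rik (Thoc2l), Gm46430 and Gm38399 (part of Nav1). The pseudogenes were 4632415L05Rik and Gm10076. Zfp469, a zinc-finger gene, lay between 6.24 and 7.10 CPM per kilobase in the count libraries. From the recovered reads of the TPM libraries it lay between 0.215 and 0.495 CPM per kilobase. 1810058I24Rik, which carries the synonyms Stmp1 and Mm47 of a small mitochondrial protein, passed the test with overexpression (below).

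Gene models of the members are given beside those of other genes, with no test. Their median length was 2819 bases against 1027 bases for lincRNAs outside the rule and 3422 bases for protein-coding genes. A single block of exons made up 14 members, 21.5%, against 6.17% of the other lincRNAs and 6.82% of protein-coding genes. Longer transcripts collect more reads, so the count minimum itself favours length. The median share of G and C in the exons was 47.3% for members, 45.9% for the other lincRNAs and 48.7% for protein-coding genes. Protein-coding genes with the same count minimum had a median length of 4544 bases, a single block in 2.09% and 49.7% G and C.

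The first comparison set Ly6d overexpression against WT. Malat1 and Meg3 fell with overexpression, and 2900097C17Rik (Norad) and 1810058I24Rik rose; the other 61 members did not pass the test. All 65 were tested with edgeR's quasi-likelihood test over 15771 genes, with 2 against 2 libraries. The 2 members that rose are 3.08% of the class beside 2.32% of all genes tested, and the 2 that fell are 3.08% beside 1.84%. Each share rests on 2 genes. Without WT replicate 2, 1 member was called higher and 2 lower. At an unadjusted p under 0.05, 4 members were higher and 4 lower, beside 1268 and 1214 of 13766 protein-coding genes. Without overlap between the groups, 12 members were higher and 13 lower. The share of all genes without overlap was not counted, so neither count is a result about the members. The median log2 fold change was 0.02 for the members and -0.001 for all genes.

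Meg3 (ENSMUSG00000021268, chromosome 12, 109541001 to 109571726, plus strand) had the largest fall among called members. It had 274 and 204 counts in WT and 98 and 114 in overexpression, or 15.1 and 13.2 CPM against 5.36 and 6.33 CPM. The WT mean was 14.2 ± 1.36 CPM and the overexpression mean 5.85 ± 0.689 CPM (SD, n = 2 each), 2.42-fold apart. The log2 fold change was -1.29 ± 0.22 (SE, edgeR adjusted p = 0.00641), and it lay between -1.43 and -1.18 with any library left out. Some marker lists of other cells moved with it, beside 1.84% of all genes called lower. Of the endocrine list, 11 of 17 tested genes were lower and the sum was 1465 and 1306 CPM in WT against 630.4 and 683 CPM in overexpression. In the endothelial list 7 of 17 were lower, with sums of 670 and 646 against 469 and 498 CPM, and in the acinar list 25 of 25. Other lists did not fall. Of the fibroblast list 2 of 15 tested genes were higher and 1 lower, with sums of 7042 and 7812 against 8125 and 8052 CPM, and the leukocyte lists below were higher. No gene of the endocrine, endothelial, acinar and fibroblast lists was at 0 in all count libraries. The part of these cells in the fall of Meg3 was not tested.

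Malat1 fell from 897 ± 73.6 CPM to 611 ± 81.6 CPM (SD, n = 2 each), 1.47-fold. Its log2 fold change was -0.57 ± 0.09 (SE, edgeR adjusted p = 0.00439), and -0.65 without WT replicate 2. It was called in each of the 11 alternatives, as was Meg3. Of 18 genes tested for proteins of its compartment, the nuclear speckle, 1 was lower (5.56%, beside 1.84% of all genes), the splicing factor Srsf7 (log2 fold change -0.44 ± 0.08 SE, edgeR adjusted p = 0.0107). At an unadjusted p under 0.05, 8 of the 18 were lower and 0 higher, beside 1214 lower and 1268 higher of 13766 protein-coding genes. Of 20 paraspeckle genes tested 1 was lower, the RNA-binding protein gene Tardbp (-0.30 ± 0.08, edgeR adjusted p = 0.0499), while Neat1 itself was at -0.10 ± 0.08 (edgeR adjusted p = 0.572).

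Norad rose from 188 ± 8.88 CPM to 243 ± 11.7 CPM (SD, n = 2 each). Library values were 182 and 194 CPM in WT and 235 and 251 CPM in overexpression, without overlap. The log2 fold change was 0.35 ± 0.07 (SE, edgeR adjusted p = 0.0204), and it missed the threshold without WT replicate 1 (adjusted p = 0.0587) or without overexpression replicate 2 (adjusted p = 0.0503). 1810058I24Rik was at 38.7 and 35.1 CPM in WT and at 50.4 and 50.7 CPM in overexpression, 1.37-fold higher (log2 fold change 0.44 ± 0.11 SE, edgeR adjusted p = 0.0461). Its call was lost when WT replicate 1 (adjusted p = 0.106) or WT replicate 2 (0.341) was left out, with a replicate block (0.0795), without marker genes (0.0595) and in DESeq2 (0.0555). The log2 fold change lay between 0.37 and 0.49 in all 11 alternatives. Leukocyte markers were higher in the same libraries: of the pan-leukocyte list 10 of 10 tested genes, of the neutrophil list 7 of 11 and of the macrophage list 7 of 15. Their sums were 28.6 and 22.9, 76.8 and 76.7, and 197 and 189 CPM in WT, against 105 and 105, 198 and 211, and 400.4 and 404 CPM in overexpression. No gene of these 3 lists was at 0 in all count libraries, and their part in the changes of the 4 called members was not tested.

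Gm26917 had the most negative value of all members, -1.32 ± 0.41 (SE), and did not pass the test (edgeR adjusted p = 0.109). Without WT replicate 2, the library with high ribosomal RNA, the log2 fold change was -0.05 (adjusted p = 0.985). The 3 other count libraries lay between 202 and 210.1 CPM.

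**Figure D3:**
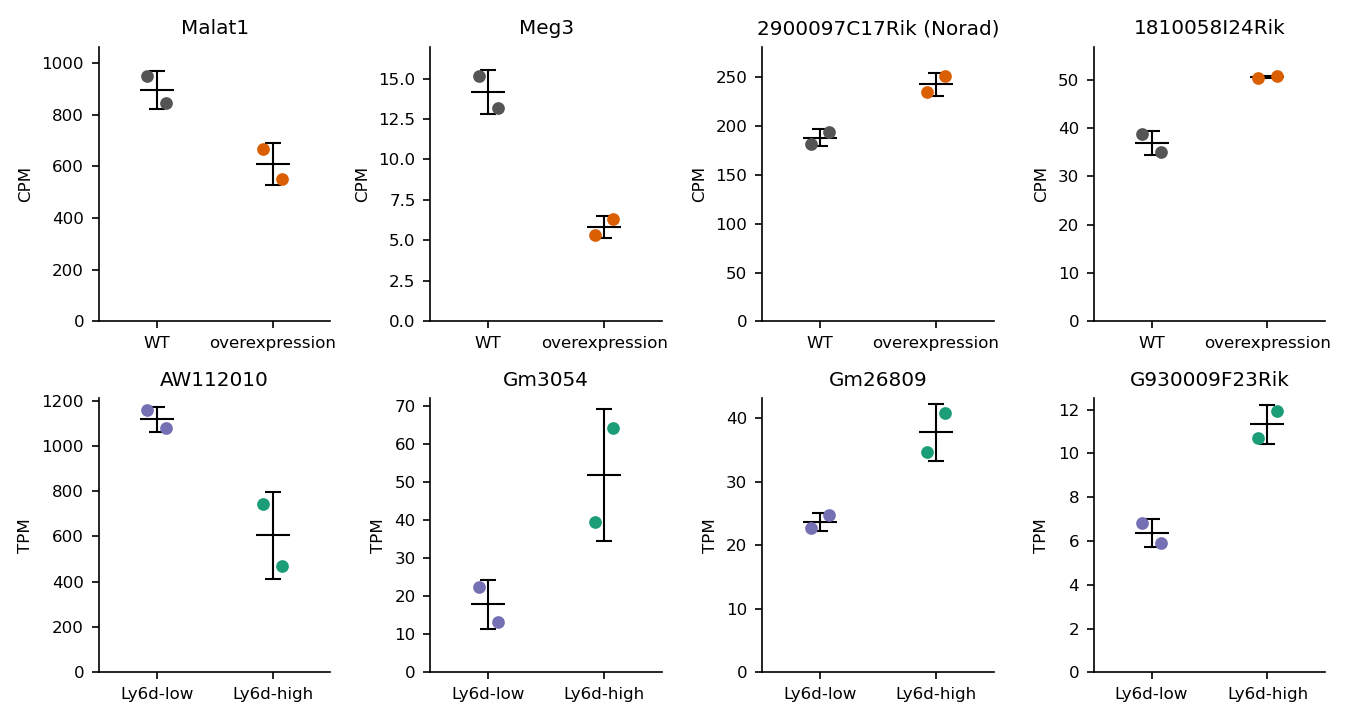
Library values of the 8 members that passed a test: CPM of WT and overexpression in the upper row, TPM of Ly6d-low and Ly6d-high in the lower row; points are libraries, the horizontal line is the mean and the bar the SD over 2 libraries, and axes start at 0. In every panel the 2 groups are apart, from 1.29-fold in mean level for Norad to 2.89-fold for Gm3054.

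The second comparison set Ly6d-high against Ly6d-low cells, in libraries that took no part in choosing the members. AW112010 was lower in Ly6d-high cells, and Gm3054, G930009F23Rik and Gm26809 were higher. Of the 65 members 60 were tested (limma-trend on log2(TPM + 1), 14625 genes, 2 against 2 libraries). Meg3, Zfp469, Gm37494, D930016D06Rik and Gm37233 did not reach 1 TPM in 2 libraries. The 3 members that were higher are 5% of those tested beside 8.64% of all genes, and the 1 that was lower is 1.67% beside 1.17%. Unadjusted, 7 members were higher and 5 lower at p under 0.05, beside 3468 and 321 of 12148 protein-coding genes. Without overlap 25 of the 65 members were higher and 9 lower. Here too the share of all genes was not counted, so these counts only describe the members. The median over all genes was 0.25 on the log2(TPM + 1) scale and that of the members 0.08, so 40 of the 60 members lay below the median of all genes.

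These calls depend on how the libraries are scaled, and on the filter on low TPM, without which 0 members were called. Over all genes limma called 1264 higher and 171 lower, and 711 and 249 with TMM factors. With TMM factors on TPM, where the median of all genes was 0.01, 0 members were called, 4 were higher and 8 lower at an unadjusted p under 0.05, and the members' median was -0.15. On recovered reads, edgeR called AW112010 and Gm44275 lower, and DESeq2 called Gm44275 and 3110039M20Rik lower; neither called a member higher. At an unadjusted p under 0.05, edgeR had 4 members higher and 9 lower, and DESeq2 3 higher and 7 lower. Over all genes edgeR on reads called 1224 higher and 591 lower, and DESeq2 1074 and 632. The 4 members called by limma kept their direction under each of these settings. Markers of other cells moved between the fractions too: the acinar list summed to 22970 and 20551 TPM in Ly6d-high and to 9402 and 9448 TPM in Ly6d-low cells, with 19 of 25 tested genes higher. The macrophage list summed to 884 and 935 TPM against 292 TPM in both Ly6d-low libraries, with 7 of 11 higher. No gene of either list was at 0 throughout the count libraries, and the part of these cells in the members' differences was not tested.

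AW112010 (ENSMUSG00000075010, chromosome 19, 11047617 to 11050566, minus strand) is known from immune cells, where interferon and bacterial products induce it. It was the member with the highest TPM, at 742 and 469 TPM in Ly6d-high and at 1157 and 1078 TPM in Ly6d-low cells. The means were 605 ± 193 and 1118 ± 55.6 TPM (SD, n = 2 each), 1.85-fold apart. The difference was -0.92 ± 0.20 (SE, limma adjusted p = 0.0334), or -1.15 with edgeR on recovered reads (adjusted p = 0.0304). It missed the threshold in limma with TMM factors (adjusted p = 0.0995) and without a filter on low TPM (0.162), and with DESeq2 on reads (0.0650). Without Ly6d-high replicate 2 it was -0.59. Leukocyte markers went the other way: the pan-leukocyte list summed to 49.2 and 45.6 TPM in Ly6d-high and to 20.9 and 21.1 TPM in Ly6d-low cells. Of its 8 tested genes 4 were higher and 0 lower, and none of its 10 genes was at 0 throughout the count libraries. The endocrine list was lower together with AW112010, at 417 and 366 against 774 and 731 TPM, with 4 of 11 tested genes lower and 0 higher. In the tumour epithelial list 4 of 10 were lower and 1 higher. The part of any of these cells in the difference of AW112010 was not tested. In the count table the pan-leukocyte list was at 28.6 and 22.9 CPM in WT and at 105 CPM in both overexpression libraries. AW112010 was there at 80.8 and 73.9 against 72.5 and 85.9 CPM (log2 fold change 0.02 ± 0.10 SE, edgeR adjusted p = 0.961).

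Gm3054 (chromosome 5, 137154029 to 137166070, minus strand) rests on a gene model of 265 bases and few reads: 84 and 113 in Ly6d-high and 36 and 27 in Ly6d-low cells. It was at 39.5 and 64.1 TPM against 22.5 and 13.3 TPM, a difference of 1.49 ± 0.30 (SE, limma adjusted p = 0.0249), and adjusted p = 0.0510 without Ly6d-high replicate 2. A gap of 4707 bases separates it from the mucin gene Muc3 on the same strand, which was at 104 and 126 TPM in Ly6d-high and 40.8 and 47.5 TPM in Ly6d-low cells (1.36 ± 0.16 SE, limma adjusted p = 0.00228). Whether reads of Muc3 transcripts reach into Gm3054 was not tested. With overexpression neither moved by more than its error: 0.16 ± 0.23 for Gm3054 and -0.005 ± 0.07 for Muc3.

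Gm26809 (chromosome 6, 18844220 to 18847360, plus strand) was at 34.6 and 40.9 TPM in Ly6d-high and at 22.7 and 24.7 TPM in Ly6d-low cells, a difference of 0.65 ± 0.16 (SE, limma adjusted p = 0.0475). It lies 1219 bases from Lsm8, a gene of the spliceosomal Lsm ring on the same strand, which was at -0.23 ± 0.15 (limma adjusted p = 0.304). G930009F23Rik (chromosome 15, 38436225 to 38455134, minus strand) was at 10.7 and 11.9 TPM against 6.81 and 5.90 TPM, a difference of 0.75 ± 0.17 (limma adjusted p = 0.0423). Relative to the median of all genes these are 0.40 and 0.50, and Gm3054 is 1.24 and AW112010 -1.17. G930009F23Rik also lay at the edge of the rule, with 116 and 63 counts in WT and 77 and 50 in overexpression. Both calls were lost without either Ly6d-low library, at adjusted p from 0.282 to 0.562.

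Among members below the filter, Meg3 had 22 and 18 recovered reads in Ly6d-high and 10 and 9 in Ly6d-low cells, or 0.152 and 0.150 TPM against 0.0915 and 0.0651 TPM. With edgeR on recovered reads its log2 fold change was 0.67 ± 0.48 (SE, adjusted p = 0.388). Malat1 differed by -0.10 ± 0.11 (SE, limma adjusted p = 0.525), or by -0.39 with edgeR on reads (adjusted p = 0.0794), which was called with a replicate block added (-0.40, adjusted p = 0.0242). Norad differed by 0.16 ± 0.17 (limma adjusted p = 0.533), and its sign turned with TMM factors (-0.11), with edgeR on reads (-0.13) and with DESeq2 on reads (-0.14). It was called higher without Ly6d-high replicate 1 (0.36, adjusted p = 0.0274) and was at -0.03 without Ly6d-high replicate 2.

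**Figure D4:**
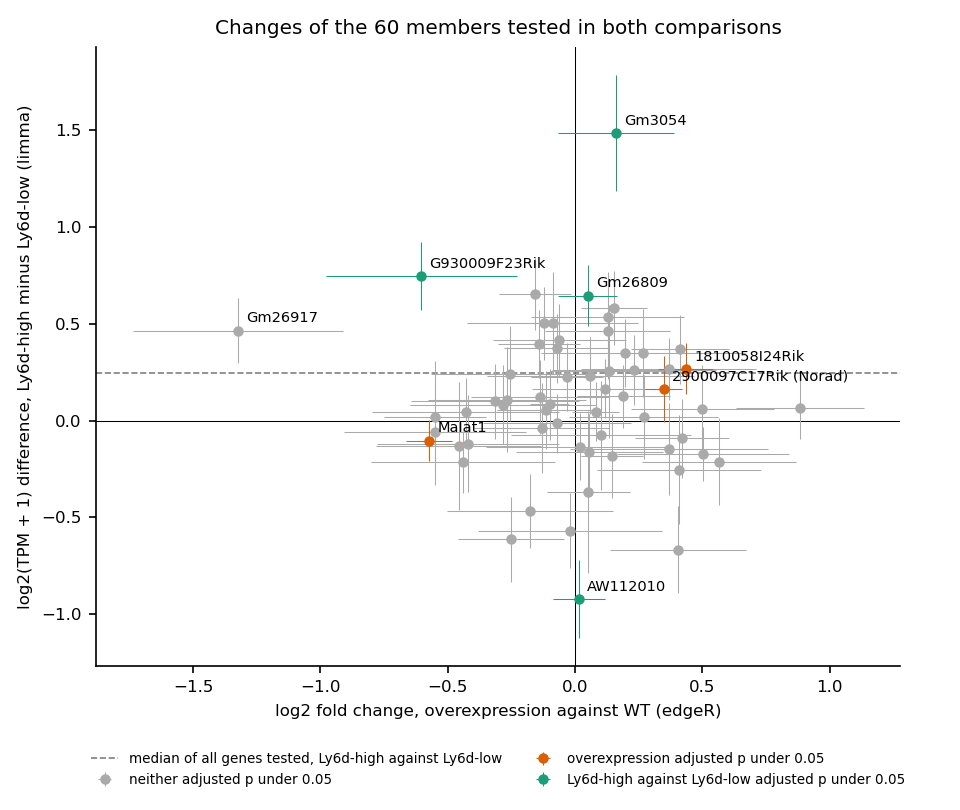
Change of each of the 60 members tested in both comparisons, with overexpression against WT on the x axis (log2 fold change) and Ly6d-high minus Ly6d-low on the y axis (log2(TPM + 1) difference); bars are standard errors, and the dashed line marks the median of all genes, 0.25. No member is coloured for both comparisons, and Gm26917, at -1.32 on the x axis, passed in neither.

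No member passed in both comparisons, and 30 of the 60 tested in both had the same sign. The comparisons share no library, and the difference between them was not tested. With overexpression 56 of 65 members lay within 0.5 of 0 on the log2 scale, and in the sorted fractions 48 of 60. The 38 members outside the naming rule, all with clone or predicted names, lay between 0.654 and 12.7 CPM per kilobase. With overexpression they ran from -0.46 to 0.56 on the log2 scale, 22 of them above 0, with a lowest edgeR adjusted p = 0.302. In the sorted fractions 35 of them were tested and ran from -0.67 to 0.54, 20 above 0, with a lowest limma adjusted p = 0.106. On recovered reads 11 of these 35 lay above 0 and 24 below. Gm44275 (-0.94, adjusted p = 0.0149 with edgeR and 0.00162 with DESeq2) and 3110039M20Rik (-0.95, adjusted p = 0.0464 with DESeq2) are among them, and both were named after their values were seen.

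Counts in other gene classes are given for scale. With overexpression, edgeR called 0 of 264 other lincRNAs higher and 1 lower (15 and 10 at an unadjusted p under 0.05), and 279 and 279 of 13766 protein-coding genes. In the sorted fractions, limma called 18 of 289 other lincRNAs higher and 2 lower, and 1050 and 99 of 12148 protein-coding genes. No test of these differences in share was made.

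Distances to the nearest protein-coding gene describe the members only, since they were not measured for other lincRNAs. Of 65, 12 overlapped the span of one, a further 7 lay within 1 kb, 35 in all lay within 10 kb, and 3 lay beyond 100 kb, with a median distance of 4885 bases. Some overlaps are with long predicted models. Gm20388, which overlaps Gm42047 and Zfp469, was at 0 in all libraries, and its start lies 1922406 and 2358728 bases from theirs. In 5 pairs the genes start within 1 kb of each other on opposite strands: 5031425E22Rik with Kmt2e (172 bases), Fam120aos with Fam120a (270), Gm17586 with Mafg (168), 2010320M18Rik with Pik3r2 (102) and 4632404H12Rik with Ube2q1 (376). Of the 10 genes of these pairs, none passed the test in either comparison. More than 10% of the exonic bases lay in exons of a protein-coding gene for Snhg6 (11.1%, Mcmdc2), 3110039M20Rik (14.5%, Gm43517) and Gm16973 (15.9%, Mphosph8). Since no source states strand-specific counting, reads of such pairs cannot be told apart.

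Changes of members and of their nearest coding genes were set side by side. With overexpression, across 53 pairs with both genes tested, Pearson's r of the log2 fold changes was -0.04, and 28 pairs had the same sign. In the sorted fractions r was 0.32 across 48 pairs, with 30 of the same sign. Genes are not independent replicates, and all pairs share the same libraries and scaling. With overexpression 2 of 53 neighbours tested passed, Bcl2l11 beside Morrbid (Gm14005) higher and Azin1 beside G930009F23Rik lower, 1.89% each, beside 2.32% and 1.84% of all genes. Bcl2l11, a pro-apoptotic gene that Morrbid is known to repress in myeloid cells, was at 43.4 and 44.1 CPM in WT and at 56.4 and 63.3 CPM in overexpression (log2 fold change 0.44 ± 0.10 SE, edgeR adjusted p = 0.0410). Morrbid was at 42.5 and 34.9 CPM against 42.4 and 44.2 CPM (0.14 ± 0.12, edgeR adjusted p = 0.612). In the sorted fractions 6 of 50 neighbours tested passed. Muc3, Cp, Akap13, Epb41l4a and Ppp1r36 were higher in Ly6d-high cells (10%, beside 8.64% of all genes) and Krt8 was lower (2%, beside 1.17%). Of their 6 partners, only Gm3054 was called too. Epb41l4a, 341 bases from Epb41l4aos and on the other strand, was at 0.87 ± 0.21 (limma adjusted p = 0.0425), while Epb41l4aos was at -0.09 ± 0.20 (limma adjusted p = 0.778).

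Levels in the 2 tables were compared per kilobase of the listed length. They were normalized separately and come from different libraries, so no test was made. That the count libraries are of sorted cells is inferred from names, and a difference between tissue and sorted cells was not tested. Across the 65 members, Spearman's rho between the mean levels was 0.75, a description across genes that share length and library. Of the members, 14 were over 3-fold lower among the TPM libraries and 2 over 3-fold higher, AW112010 (3.32-fold) and Gm20467 (3.18-fold). Protein-coding genes shifted too: 21.5% of members and 20.3% of 11080 protein-coding genes with the same count minimum were over 3-fold lower, and the median ratios were 0.776 and 0.841. Among the members with the largest drops were Epb41l4aos, Zfp469 (ratio 0.0517), Snhg6, Meg3 (0.0795), Gm10076 (0.115), Snhg12 and H19 (0.174).

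**Figure D5:**
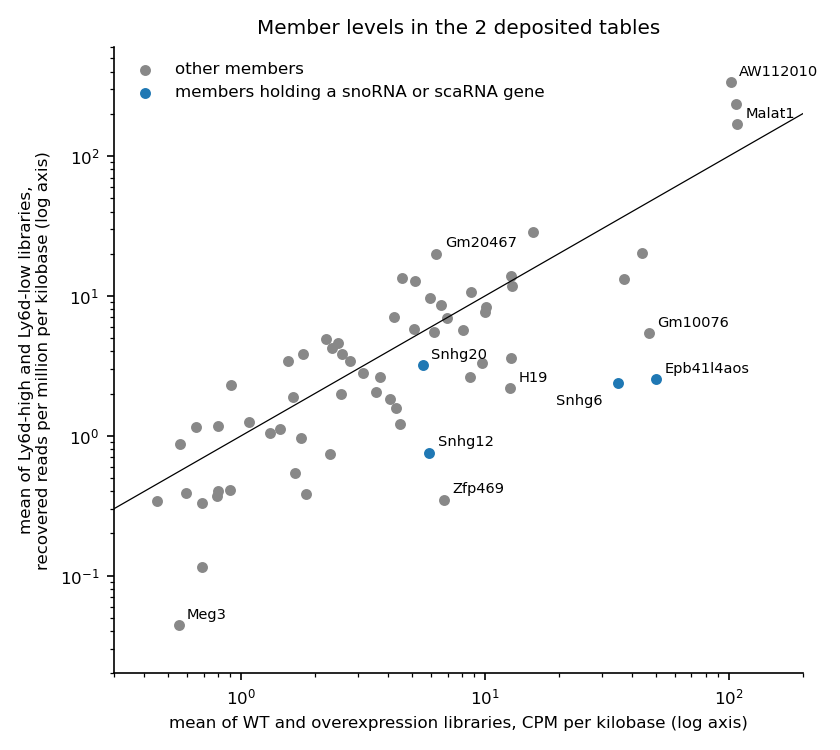
Mean level of each member in the count table (x axis, CPM per kilobase) against the TPM table (y axis, recovered reads as CPM per kilobase), log axes; the line marks equal levels and blue points are the 4 hosts of small nucleolar or Cajal body RNAs. Of the hosts, Epb41l4aos, Snhg6 and Snhg12 lie 7.79-fold to 19.7-fold below the line and Snhg20 1.74-fold.

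Genes that make, hold or degrade such RNAs were counted by list. With overexpression 1 of 20 paraspeckle (5%), 1 of 18 nuclear speckle (5.56%) and 1 of 15 microRNA processing genes (6.67%) were lower, beside 1.84% of all genes, each share resting on 1 gene. The microRNA processing gene was the helicase gene Ddx17 (log2 fold change -0.25 ± 0.06 SE, edgeR adjusted p = 0.0470). Of 16 nuclear RNA decay, 14 nonsense-mediated decay and 16 Xist silencing genes tested, edgeR called 0, and 3, 1 and 1 had an unadjusted p under 0.05. In the sorted fractions 1 gene of these 6 lists passed in limma, the splicing factor gene U2af1 of the speckle list (-0.63 ± 0.13 SE, limma adjusted p = 0.0283). It is 1 of 18 speckle genes tested (5.56%, beside 1.17% of all genes lower). Of 15 snoRNA host genes tested in each comparison, members included, edgeR called 0 with overexpression (2 at an unadjusted p under 0.05). In the sorted fractions limma called 1, Snhg18, higher in Ly6d-high cells (6.67%, beside 8.64% of all genes). Snhg18 is no member, was named after its values were seen, and was at 7.80 and 10.3 TPM in Ly6d-high against 1.56 and 1.497 TPM in Ly6d-low cells (1.98 ± 0.21 SE, limma adjusted p = 0.00152).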

How the data were processed

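RNA of KPC1199 cells sorted from tumours was sequenced, and 8 libraries in 4 groups were used. Tools of the authors, per the submitters' processing notes, include fastp, HISAT2, featureCounts and DESeq2 (no versions), with the build mm9. Coordinates in the deposited tables are those of GRCm38: 98.3% of 54495 genes found in GENCODE M21 had the same position, and 61 of 65 members did. The deposited WT and overexpression table holds raw counts per gene, and the deposited Ly6d-high and Ly6d-low table holds TPM. The deposited length column gives bases of the gene model and no other measure. Another 2 columns with sample counts could not be tied to a label and were left out. TPM times length gave whole reads for 100% of values above 0 (tolerance 0.1 reads).

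Counts were tested with edgeR 4.0.16 (R 4.3.3; filterByExpr, TMM, quasi-likelihood test), and log2(TPM + 1) with limma 3.58.1 (limma-trend), over genes that reached 1 TPM in 2 libraries or more. The Benjamini-Hochberg adjusted p, over all genes tested, had to lie under 0.05. Differences on the log2(TPM + 1) scale understate changes of low genes. The design foresaw TPM computed from the counts for levels, but the short gene Gm23935 then took 301191 TPM in WT replicate 2, so CPM per kilobase was used; the 10 highest members were the same. DESeq2 1.42.0, other scalings and filters, a replicate block and leaving out each library were alternatives. Neighbours came from the tables' coordinates. Both tests were checked on simulated data. The members and gene lists were chosen with earlier results of these data known. Named members were those with an official symbol, the 10 highest per length and those past a threshold.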

Additional observations from a re-analysis of the deposited data

How the results depend on the processing

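With overexpression, the number of members called was 4 and stayed within 1.5 times of that under all alternatives that kept every library: 3 with DESeq2 1.42.0, 6 without a filter on low counts, and 3 with cell type markers and receptor segments left out. Leaving out a library gave 3 to 10 members, the 10 without overexpression replicate 1, and no called member changed its direction. Without the ribosomal RNA gene CT010467.1 and Gm26917, an alternative chosen after seeing the data, 4 were called. Gm26917 was called lower without a filter and without WT replicate 1, overexpression replicate 1 or overexpression replicate 2. For Ly6d-high against Ly6d-low, 4 members were called, against 0 with TMM factors on TPM, 0 without a filter on low TPM, and 3 with a pseudocount of 0.1. At an unadjusted p under 0.05 without the filter, limma gave 7 higher and 4 lower. Alternatives on recovered reads, chosen after seeing the data, called 2 with edgeR, 2 with DESeq2 and 8 with edgeR and a replicate block. Leaving out a library gave 2 to 21, the 21 without Ly6d-high replicate 1; the count was 2 without either Ly6d-low library. The 4 called members kept their direction in each. The causes of these differences were not tested. Whether same-numbered libraries share more than a number is not stated. The correlation of their deviations was -0.04 with overexpression and 0.20 in the sorted fractions. With a replicate block 3 members were called with overexpression and 11 in the sorted fractions. The rule with a minimum of 20 counts gave 117 members, and 32 with 100 counts. Depth limits the lowest members: the lowest value of a member in a TPM library rests on 5 recovered reads. Over all genes, edgeR called 366 higher and 290 lower with overexpression, against 608 and 579 without a filter, 221 and 211 without markers, 694 and 890 without overexpression replicate 1 and 526 and 536 without overexpression replicate 2. In the sorted fractions limma called 1264 and 171, against 485 and 46 without a filter, 3581 and 598 with a replicate block and 5599 and 1111 without Ly6d-high replicate 1; edgeR on reads with a replicate block called 1660 and 1372.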

Other observations

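The Y-linked genes, read beside Xist, set the sorted fractions apart. Ddx3y was at 4.65 and 4.28 TPM in Ly6d-high and at 0.509 and 0.378 TPM in Ly6d-low cells (log2 difference 1.92 ± 0.21 SE, limma adjusted p = 0.00190), and Eif2s3y at 11.4 and 12.1 against 0.517 and 0.472 TPM (3.09 ± 0.19 SE, limma adjusted p = 0.000133). Xist was listed at 0 in all 4 of these libraries. With overexpression neither gene passed the test (edgeR adjusted p = 0.723 and 0.194): Ddx3y was at 7.34 and 7.44 CPM in WT and 8.37 and 3.67 CPM in overexpression, and Eif2s3y at 5.85 and 4.08 against 2.57 and 2.44 CPM. The X-linked lncRNA gene Firre, no member, was at 53.5 and 49.2 CPM in WT and 45.5 and 33.05 CPM in overexpression (log2 fold change -0.40 ± 0.14 SE, edgeR adjusted p = 0.158).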
